A study of Mus musculus with 6 samples.

Results

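Interneuron neuropeptides and calcium-binding proteins were followed in whole brains with and without the neural cell adhesion molecule NCAM. The 7 genes were Sst, Npy, Vip, Cck, Calb1, Calb2 and Pvalb, and every array entry (probe set) annotated with 1 of these symbols alone was taken, which gave 8 of 12422 probe sets, for 7 of 8251 genes. Each gene had 1 probe set except Pvalb, which had 2. All mice were male C57BL/6J animals. The 3 knockout mice carried a constitutive deletion of Ncam, so the gene was missing in all cells throughout life, and the 3 wild-type mice shared their genetic background. Each group held 2 mice aged 2 months (replicates 1 and 2) and 1 aged 3 months (replicate 3). Total RNA of each dissected brain was measured on an Affymetrix array of its own, giving n = 3 animals per group. The comparison addresses whether transcripts of these inhibitory cell markers differ when NCAM is absent.

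Cortical and hippocampal inhibitory neurons release GABA and fall into classes that are told apart by the peptides and calcium buffers they contain. Somatostatin (Sst) marks cells that contact distal dendrites, vasoactive intestinal peptide (Vip) marks cells that inhibit other interneurons, and parvalbumin (Pvalb) marks fast-spiking basket and axo-axonic cells. Cholecystokinin (Cck) and neuropeptide Y (Npy) label further interneurons, and Cck is also made by many excitatory neurons. Calbindin (Calb1), calretinin (Calb2) and parvalbumin are EF-hand proteins that bind free calcium. All 3 are also abundant in the cerebellum, where Calb1 and Pvalb are found in Purkinje cells and Calb2 in granule cells.

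The 4 peptide genes are shown by the DNA just upstream of their transcription starts, because all 4 had their highest signal in the same brain, as described below, while their order over the other brains differed. The 120 bases before the start are given 5′ to 3′ on the strand of the gene, from RefSeq (GRCm38.p6), with capitals for the half-site TGACG of the cyclic AMP response element or its reverse complement CGTCA. The positions are chr16:23890845-23890964, minus strand, for Sst, chr10:5639098-5639217, plus strand, for Vip, chr9:121495695-121495814, minus strand, for Cck, and chr6:49822590-49822709, plus strand, for Npy.
Sst: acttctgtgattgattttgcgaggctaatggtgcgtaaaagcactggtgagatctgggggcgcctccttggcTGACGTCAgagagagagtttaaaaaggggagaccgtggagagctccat
Vip: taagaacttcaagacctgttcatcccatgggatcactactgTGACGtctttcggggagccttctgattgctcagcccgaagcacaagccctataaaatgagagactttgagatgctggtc
Cck: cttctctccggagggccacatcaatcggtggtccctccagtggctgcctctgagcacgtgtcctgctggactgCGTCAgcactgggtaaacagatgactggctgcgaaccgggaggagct
Npy: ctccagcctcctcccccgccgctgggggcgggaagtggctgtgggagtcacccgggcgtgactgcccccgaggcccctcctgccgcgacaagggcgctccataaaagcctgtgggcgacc
Sst held the full octamer TGACGTCA, in which the half-sites of both strands overlap. Vip and Cck held 1 half-site each and Npy none. Neither of the 2 windows listed for Pvalb, which was lowest in that brain, held a half-site. Calb1 and Calb2, also lowest there, had no window listed, so their letters could not be compared. Searched on both strands, the half-site was present in 11.7% and the octamer in 1.24% of 32851 upstream windows of the same length. These matches describe the letters of the windows and were not tested for a relation to the signals.

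The arrays differed in brain regions before any comparison of genotypes. All arrays shared 1 scale, the middle 96% of signals averaging 300.2. Ncam1 itself read 270.8 ± 59.6 in knockout and 1337 ± 116 in wild-type brains by its brightest probe set (SD, n = 3). Of its other probe sets, 1 read 86.3 ± 14.9 in knockout and 147.0 ± 7.0 in wild-type brains, and 1 read 3.5 to 8.5 over all arrays. Cerebellar marker genes were much dimmer on the array of knockout replicate 2. All 10 of the 10 measured markers were lowest there, and their summed signal was 1844, against 7766 and 8733 in the other knockout brains and 8103 to 8881 in wild-type brains. No marker was listed at 0, although Gabra6, a granule cell subunit of the GABA receptor, gave 11.8 in that brain and 1254 to 1388 in the others. Zic1, a transcription factor of granule cells, read 825.0 against 1963 to 2390.4. Knockout replicate 1 stood apart for pituitary genes, with a summed signal of 15624 for 6 measured markers against 1249 to 1341 in the other knockout and 939.2 to 1097 in wild-type brains. Of these, growth hormone (Gh) read 11613 there and 222.4 to 409.7 elsewhere, while Lhb read 486.3 against 335.1 to 392.8 and Ghrhr 155.3 against 104.1 to 159.7. Results for the 7 genes are therefore given with and without knockout replicate 2.

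None of the 8 probe sets differed between the genotypes after adjustment over all 7453 probe sets bright enough to be tested. In limma, a linear model with pooled variance estimates, 0 of 8 passed an adjusted p of 0.05 and 1, for Calb2, had an unadjusted p under 0.05. Over all probe sets 0.0268% passed after adjustment and 6.94% had an unadjusted p under 0.05. The median log2 difference, knockout minus wild type, was -0.07 over the 7 genes and 0.00 over all 5665 genes tested. All differences below are on the scale log2(signal + 16), with the standard error from limma. With 3 against 3 animals an exact permutation test cannot go below p = 0.1.

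Among the peptides, Sst was bright and similar in both groups. Its signal was 2108, 2647 and 2131 in knockout replicates 1, 2 and 3, and 2432, 2264 and 2480.4 in wild-type replicates 1, 2 and 3. Knockout replicate 2 was the highest of the 6 and the other knockout brains were the lowest, so the groups overlapped. The means were 2295 ± 305 and 2392 ± 113 (SD, n = 3), a log2 difference of -0.07 ± 0.09 with a 95% interval of -0.28 to 0.14 (adjusted p = 0.898 in limma). Without knockout replicate 2 the difference was -0.17 ± 0.07, with an adjusted p of 0.496 in limma (0.496 to 0.994 over all other settings). In that comparison Sst was the 1 probe set of the 8 with an unadjusted p under 0.05, where 9.57% of all probe sets had one.

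Npy, whose peptide acts on inhibitory receptors of the Npy1r and Npy2r type, read 846.3, 1066 and 753.0 in knockout replicates 1, 2 and 3. Wild-type replicates 1, 2 and 3 read 857.3, 812.4 and 999.96. The knockout brains held both the highest and the lowest value. The means were 888.3 ± 160.5 and 889.9 ± 97.9, a log2 difference of -0.01 ± 0.13 (interval -0.31 to 0.29, adjusted p = 0.992 in limma), and -0.15 ± 0.11 without knockout replicate 2.

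Vip was dim, although above the filter limit of 72.2 on every array. It read 134.2, 149.8 and 115.8 in knockout replicates 1, 2 and 3 and 118.7, 121.8 and 142.4 in wild-type replicates 1, 2 and 3. Again knockout replicate 2 was highest and knockout replicate 3 lowest. The means of 133.3 ± 17.0 and 127.6 ± 12.9 gave a log2 difference of 0.05 ± 0.14 (interval -0.27 to 0.38, adjusted p = 0.954 in limma), or -0.03 ± 0.15 without knockout replicate 2.

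Cck, a peptide of basket cells and of excitatory cortical neurons, read 3191, 4025 and 2996 in knockout replicates 1, 2 and 3 and 3494, 3158 and 3189 in wild-type replicates 1, 2 and 3. The value of knockout replicate 2 lay above all others, which spanned 2996 to 3494. The means were 3404 ± 546 and 3280.4 ± 185, a log2 difference of 0.04 ± 0.10 (interval -0.19 to 0.28, adjusted p = 0.949 in limma). Without knockout replicate 2 it was -0.08 ± 0.07. Cck lies on chromosome 9, as does Ncam1.

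All 4 peptides were thus highest in knockout replicate 2, the brain with low cerebellar signal, where 19.1% of all probe sets were highest. Relative to the wild-type mean its signals were 111% for Sst, 119.7% for Npy, 117% for Vip and 123% for Cck. Averaged over the 4 genes, its deviation from the wild-type mean was 0.23 on the log2 scale, against -0.05 in knockout replicate 1, -0.16 in knockout replicate 3 and -0.08 to 0.08 in wild-type brains. Of the forebrain marker lists, all but that of thalamus had their highest summed signal on that array. The summed signal of 3 measured striatal markers was 2623 there and 2060 to 2206 elsewhere, and that of 8 markers of hippocampus and cortex 6831 against 4939 to 5859. For 7 hypothalamic markers it was 3860 against 3059 to 3554, and for 2 olfactory bulb markers 503.3 against 380.8 to 480.4. The rise was not confined to regional markers, since the sum of 7 microglial markers was also highest there, at 4525 against 4011 to 4326. The sum of 5 thalamic markers was lowest there, at 3111 against 3188 to 3469. None of these markers was listed at 0. Their part in the peptide values was not tested.

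**Figure D1:**
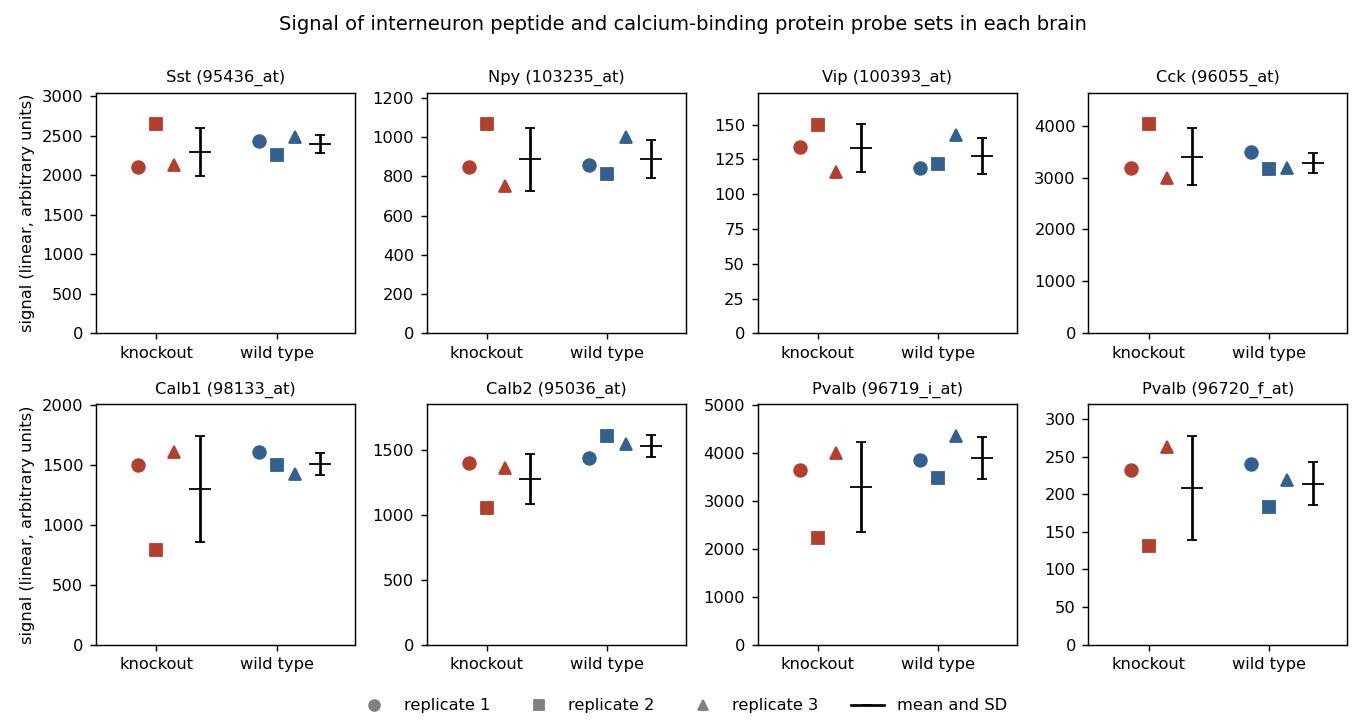
Linear signal (y axis, arbitrary units, from 0) of the 8 probe sets in each of 6 brains, 3 knockout (red) and 3 wild type (blue), with marker shapes for the replicate number and a black bar for the mean and SD. Knockout replicate 2 (squares) is the highest brain for Sst, Npy, Vip and Cck and the lowest for Calb1, Calb2 and both Pvalb probe sets.

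The calcium-binding proteins differed from the peptides in the place of knockout replicate 2. It was lowest for all 4 of their probe sets, where 19.9% of all probe sets were lowest. Calb1 read 1503, 793.7 and 1613 in knockout replicates 1, 2 and 3 and 1607, 1502 and 1424 in wild-type replicates 1, 2 and 3. Apart from knockout replicate 2, which had 52.5% of the wild-type mean, the brains overlapped between 1424 and 1613. In total brain RNA, fewer cells of a type and less RNA per cell cannot be told apart. The means were 1303 ± 445 and 1511 ± 91.8 (SD, n = 3), a log2 difference of -0.27 ± 0.23 (interval -0.78 to 0.23, adjusted p = 0.824 in limma). Without knockout replicate 2 the difference was 0.04 ± 0.08, with the sign turned.

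Pvalb followed the same pattern by both of its probe sets. The brighter one, of a kind that holds fewer probes, read 3644, 2226 and 4006 in knockout replicates 1, 2 and 3 and 3854, 3477 and 4369 in wild-type replicates 1, 2 and 3. Its log2 difference was -0.28 ± 0.19 (interval -0.72 to 0.15, adjusted p = 0.795 in limma) and -0.02 ± 0.10 without knockout replicate 2. The dimmer one, of a kind that can bind related transcripts, read 232.9, 131.2 and 263.5 in knockout replicates 1, 2 and 3 and 239.9, 183.9 and 219.8 in wild-type replicates 1, 2 and 3. Knockout replicate 2 thus had 57.1% and 61.1% of the wild-type mean by the 2 probe sets, below every other brain. The dimmer probe set gave a log2 difference of -0.08 ± 0.23 with all animals (adjusted p = 0.958 in limma) and 0.20 ± 0.14 without knockout replicate 2.

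Calb2 was the 1 gene whose groups did not overlap. It read 1402, 1051 and 1362 in knockout replicates 1, 2 and 3 and 1439.6, 1609 and 1544 in wild-type replicates 1, 2 and 3. All 3 knockout brains were below all wild-type brains, although the gap between knockout replicate 1 and wild-type replicate 1 was narrow. The means of 1271 ± 192 and 1531 ± 85.5 differed by -0.27 ± 0.11 on the log2 scale (interval -0.53 to -0.02). The unadjusted p was 0.0347 and the adjusted p 0.719 in limma, so the difference did not pass. By exact permutation (two-sided) p was 0.1, which is the lower limit of this design. Groups did not overlap for 12.9% of all probe sets. The Gapdh control, whose signal near the 3′ end over that near the 5′ end is a sign of RNA quality, did not overlap either (0.811 to 0.826 in knockout brains, 0.768 to 0.798 in wild-type brains). The same ratio for the actin control overlapped (knockout brains 1.14 to 1.22, wild-type brains 1.08 to 1.20). Summed markers of oligodendrocytes and astrocytes were lower in knockout brains without overlap. The sums were 11194 to 12403 against 12848 to 13616 for 6 oligodendrocyte markers. For 7 astrocyte markers they were 11854 to 12761 against 12959 to 13332. Of these, 5 oligodendrocyte and 5 astrocyte markers were lower, 1 and 2 were higher, none was listed at 0, and limma called 0. The bright astrocyte marker Gja1 was higher without overlap, at 3082 to 3528 against 2705 to 3075. Such sums weigh bright genes most. Glial lists were not alone, since the sums of the fast-spiking list described below (7588 to 7919 against 8083 to 8723) and of the pituitary markers did not overlap either. The sums of 9 general neuron markers overlapped, at 28162 to 28645 and 28252 to 29554. The part of RNA quality or of the glial markers in the Calb2 values was not tested. Knockout replicate 2 had 68.6% of the wild-type mean, and knockout replicates 1 and 3 had 91.5% and 88.9%. Without knockout replicate 2 the difference was -0.15 ± 0.07 (unadjusted p = 0.0883 and adjusted p = 0.587 in limma, and adjusted p 0.488 to 0.957 over all other settings).

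**Figure D2:**
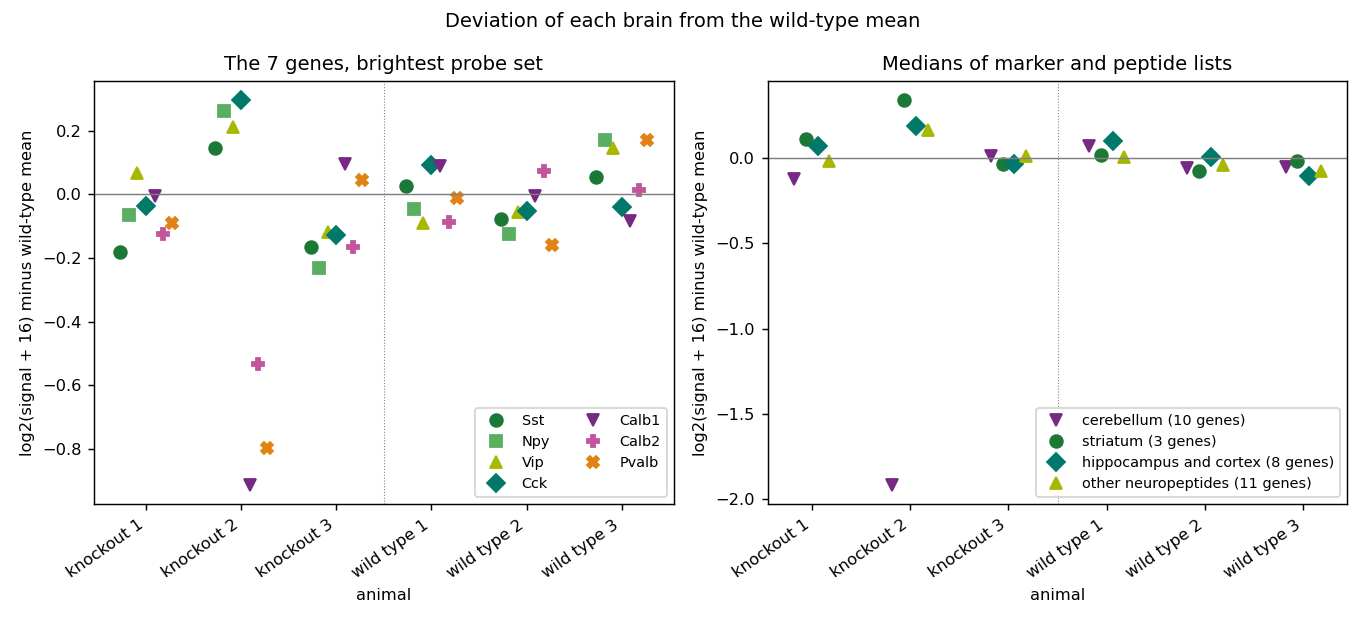
Deviation of each of the 6 brains (x axis) from the wild-type mean, as log2(signal + 16) (y axis), for the brightest probe set of the 7 genes (left) and as medians of gene lists (right, on a wider axis). Knockout replicate 2 lies at -0.91 for Calb1, -0.80 for Pvalb, -0.53 for Calb2 and -1.92 for the cerebellar markers, and above 0 for the 4 peptides and the other 3 lists.

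The low values of the calcium-binding proteins stood on the array with low cerebellar markers. That array had a median deviation of -1.92 over the 10 cerebellar markers, where the other knockout brains had -0.13 (replicate 1) and 0.01 (replicate 3) and the wild-type brains -0.06 to 0.07. Calb1, Calb2 and Pvalb together deviated there by -0.75 on average, while the means of the other knockout brains were -0.07 (replicate 1) and -0.01 (replicate 3) and those of wild-type brains -0.03 to 0.03. The part of the low cerebellar signal in these values was not tested, apart from the differences without that array given for each gene. Knockout replicate 1, the brain with pituitary signal, was not an extreme of the 6 for any of these genes except Sst, where it was lowest. Knockout replicate 3 was also set alone against wild type, a comparison chosen after the data were seen. Calb1 gave 0.10, Calb2 -0.17, Pvalb 0.04 (brighter) and 0.29 (dimmer probe set), Sst -0.16, Npy -0.23, Vip -0.12 and Cck -0.13. None of these passed (adjusted p 0.524 to 0.910 in limma). In that fit the lone knockout animal takes its spread from the wild-type group.

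**Figure D3:**
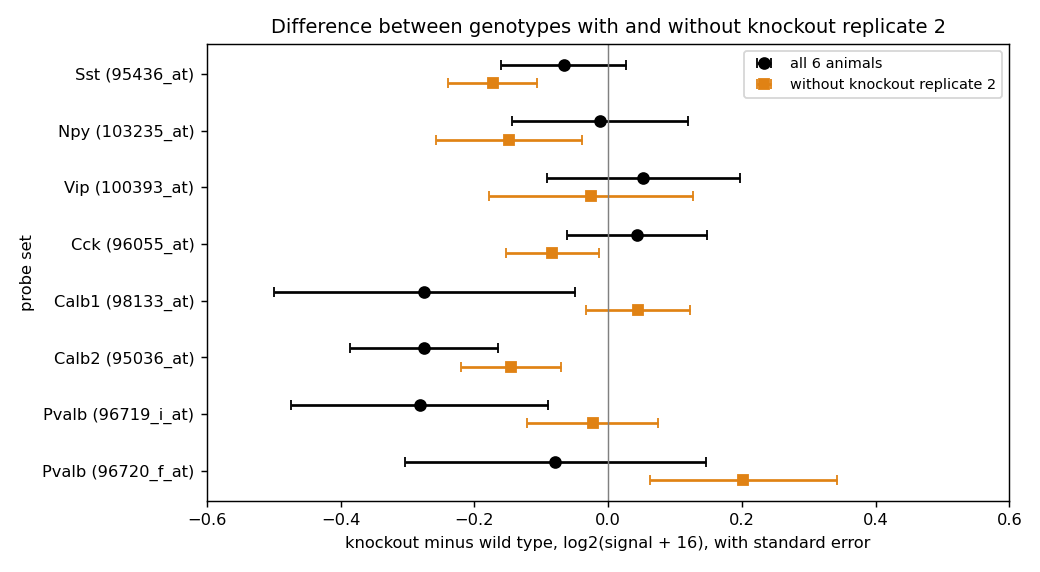
Difference between genotypes (x axis, knockout minus wild type on the scale log2(signal + 16), bars are standard errors) for the 8 probe sets (y axis), with all 6 animals (black circles) and without knockout replicate 2 (orange squares). Leaving that animal out moved Calb1 from -0.27 to 0.04 and Sst from -0.07 to -0.17, and left Calb2 below 0 at -0.15.

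Genes whose signals over the 6 brains were most like those of the 7 were named by Pearson's r, as a description of these arrays. Only Calb1, Calb2 and Pvalb varied by more than 0.5 on the log2 scale, and 2219 probe sets with 1 gene symbol varied as much. Closest to Calb1 were Gdf10 (r = 0.998), Car8 (0.997) and the phosphatase Ptprr (0.994). Car8, a Purkinje cell gene, is 1 of the cerebellar markers and read 105.7 in knockout replicate 2 against 1066 to 1803 in the other brains. Closest to Pvalb were Rflnb (0.996), Uhmk1 (0.995) and Purb (0.990), and closest to Calb2 the ephrin Efna2 (0.987), Patj (0.981) and Stag1 (0.974). Each r rests on the same 6 brains, and knockout replicate 2 was the lowest point for the 3 genes compared and for all 9 named with them.

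Receptors for the peptides were mostly dim. Of 15 receptor genes on the array 6 were bright enough to be tested, with 5 higher and 1 lower in knockout brains, a median log2 difference of 0.11 and 0 called by limma, where 0.0177% of all genes were called. The median was 0.04 without wild-type replicate 2, and also 0.04 over all 15 genes with no filter. At an unadjusted p under 0.05 in limma, which 6.78% of all genes reached, 1 receptor was higher. Npy2r, a presynaptic receptor for Npy whose probe set is of a less specific kind, gave 342.5, 306.8 and 366.4 in knockout replicates 1, 2 and 3, with wild-type replicates 1, 2 and 3 at 294.3, 242.1 and 294.8. These values did not overlap, and the log2 difference was 0.28 ± 0.12 (adjusted p = 0.719 in limma). Sstr4, a somatostatin receptor, also showed no overlap, with knockout brains at 478.9 to 497.3 and wild-type brains at 503.9 to 573.3 (-0.12 ± 0.09, adjusted p = 0.798 in limma). Of all probe sets 12.9% showed no overlap. Sstr2 had 0.17 ± 0.17, the Vip receptor Vipr1 0.20 ± 0.27 and the Cck receptor Cckbr 0.04 ± 0.09. The postsynaptic Npy receptor Npy1r read 13.9 to 69.7 on the 6 arrays and was not tested.

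Genes chosen for GABA neuron identity lay close to 0 as a group, although some of them, such as Satb1, belong to subclasses. Of 11 tested genes 6 were higher and 5 lower, with a median log2 difference of 0.01, and limma called 0 of them, also at an unadjusted p under 0.05. Gad1, which makes GABA, read 3204, 3277 and 3248 in knockout replicates 1, 2 and 3, with wild-type replicates 1, 2 and 3 at 3358, 3201 and 3123, a log2 difference of 0.01 ± 0.05. Gad1 was not low in knockout replicate 2, but the summed signal of the 11 genes was lowest there, at 8416 against 8556 to 9077, with 4 of the 11 lowest and 4 highest in that brain. The other GABA-making enzyme, Gad2, read 142.6 there and 150.8 to 210.4 in the others and had a difference of 0.03 ± 0.17, and the vesicular transporter Slc32a1 had -0.09 ± 0.08. Satb1, a regulator of Sst and Pvalb interneuron maturation, had 0.25 ± 0.15 and Kit -0.19 ± 0.13.

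Other neuropeptides were measured by 11 genes, of which 8 were higher and 3 lower, with a median log2 difference of 0.08, and limma called 0 of them, with 0 at an unadjusted p under 0.05. Knockout replicate 2 was the highest brain for 6 of the 11. The tachykinin precursor Tac1 read 391.0, 506.3 and 360.4 in knockout replicates 1, 2 and 3, with wild-type replicates 1, 2 and 3 at 363.3, 387.3 and 342.5 (0.18 ± 0.13). Cort, which encodes the somatostatin relative cortistatin, had 0.18 ± 0.13 and Adcyap1, a relative of Vip, 0.14 ± 0.11. Without knockout replicate 2 the list median was 0.00. Genes of peptide processing and storage had a median of 0.03 over 10 genes, with 8 higher, 2 lower, 0 called by limma and 1 lower at an unadjusted p under 0.05. That gene was Pcsk1n, an inhibitor of a prohormone convertase, at -0.23 ± 0.10 with no overlap, as for 12.9% of all probe sets. The granin Scg2 had 0.17 ± 0.09 and Chgb 0.11 ± 0.09.

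Among 17 other EF-hand calcium sensors and buffers 9 were higher and 8 lower, with a median log2 difference of 0.06. In limma 0 were called, and without adjustment a p under 0.05 was reached by 1 higher and 1 lower gene. The astrocyte protein S100b, 1 of the astrocyte markers summed beside Calb2, had -0.41 ± 0.14, the calmodulin gene Calm2 0.46 ± 0.18 and Rcn2 0.20 ± 0.11. Genes listed for fast-spiking cells and inhibitory synapses are not confined to Pvalb cells. They had a median of -0.09 over 12 genes, with 3 higher and 9 lower. In limma 0 were called and 2 were lower at an unadjusted p under 0.05, 1 of them Kcnc1. Knockout replicate 2 was the lowest brain for 5 of the 12 and the highest for 1, and without it the median was -0.10. The median was -0.15 without knockout replicate 1 and also -0.15 with the probe sets of a gene averaged. Kcnc1, a potassium channel of fast-spiking neurons that is also found in the cerebellum, read 54.3, 71.1 and 69.4 in knockout replicates 1, 2 and 3, with wild-type replicates 1, 2 and 3 at 97.5, 105.2 and 113.4. All 3 knockout values lay under the filter limit of 72.2, so the gene was tested only through its wild-type values, and its difference and its place in the count follow in part from the filter. The perineuronal matrix gene Bcan had -0.28 ± 0.12 and the vesicle protein Syt2 -0.22 ± 0.12.

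**Figure D4:**
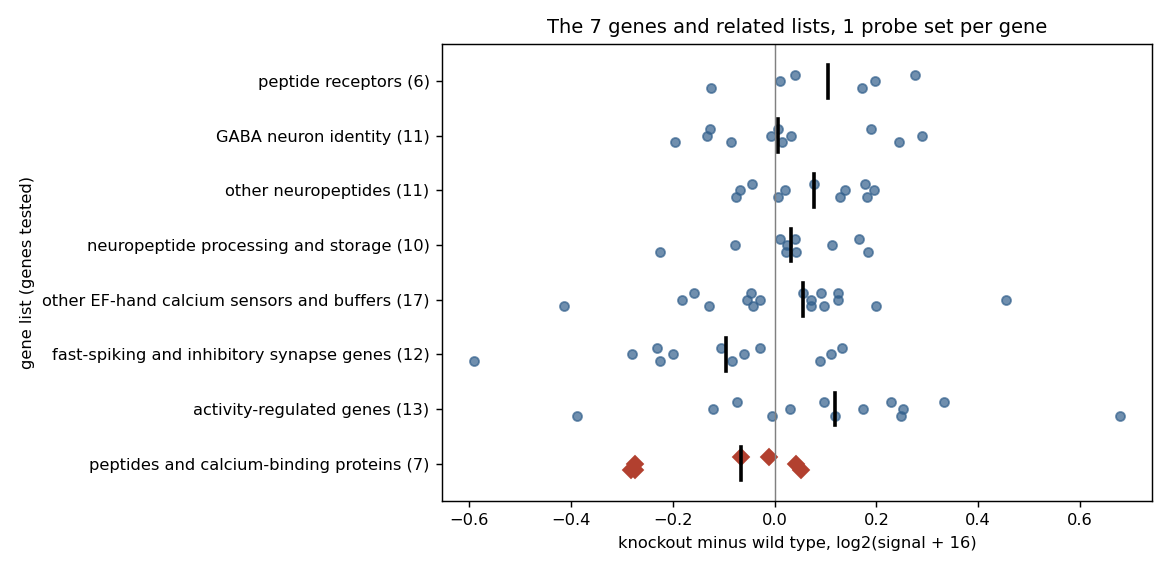
Difference between genotypes (x axis, knockout minus wild type on the scale log2(signal + 16)) for each tested gene (points) of 7 related lists and for the 7 peptides and calcium-binding proteins (red diamonds), with black bars at the medians. The medians lie between -0.09 and 0.12, and that of the 7 genes lies at -0.07.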

How the data were processed

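The deposited values are signal intensities per probe set on a linear scale, 12488 per array. Per the labels, each array holds the biotinylated RNA of 1 brain. GCOS 1.4 is named in the submitters' processing notes. Its algorithm and settings are not stated there or in the labels. The equal trimmed means show a common scaling, presumably by the authors. The 66 control entries were left out. Signals were transformed as log2(signal + 16), which understates folds of dim genes, and the 7453 probe sets with a mean at or above the 40th percentile (6.46) were tested. All 8 probe sets of the 7 genes passed. The test between genotypes used limma 3.58.1 (R 4.3.3, intensity trend, two-sided, no covariates), with Benjamini-Hochberg adjustment over all tested probe sets. The procedure was tested on simulated data.

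Gene names come from the platform annotation, which can be old. Lists used 1 probe set per gene, the brightest, without a set test. The number of arrays limits the precision. The 7 genes and all lists were chosen with earlier results of these data known. Named were all probe sets of the 7 genes, Ncam1, the 3 genes with the lowest p of each list, 7 genes fixed by name, the 3 brightest cerebellar and pituitary markers in wild-type brains, and the 3 genes most like each variable member. Other settings tried were a block for the replicate number, age, subsets of animals, normalisation, pseudocount, filter, variance trend, array weights and averaging the probe sets of each gene. Figures were drawn with matplotlib 3.10.9.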

Additional observations from a re-analysis of the deposited data

Results flagged for a closer look

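Vip differed in opposite directions at the 2 ages. At 2 months both knockout brains read higher than either wild-type brain (134.2 and 149.8 against 118.7 and 121.8, a mean log2 difference of 0.21). At 3 months the knockout brain read lower than the wild-type brain (115.8 against 142.4, a log2 difference of -0.27). With 1 animal per genotype at 3 months the difference between the ages was not tested. The highest Vip value came from knockout replicate 2, the brain with low cerebellar signal. Vip was not alone in changing sign. Npy had 0.18 at 2 months and read 753.0 (knockout) against 999.96 (wild type) at 3 months. Calb1 had -0.50 at 2 months and read 1613 against 1424 at 3 months. Cck (0.11 at 2 months), Sst (0.01) and the dimmer Pvalb probe set (-0.24) also changed sign. Calb2 and the brighter Pvalb probe set were lower in knockout brains at both ages.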

How the results depend on the processing

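None of the 8 probe sets passed after adjustment under any of 18 other settings or with knockout replicate 3 alone, in limma. At an unadjusted p under 0.05 in limma, Calb2 was found under 12 of the 18 other settings, the brighter Pvalb probe set under 2 and Sst under 1. Under these settings 4.71% to 11% of all probe sets had such a p. All fits draw on the same animals, so these counts are not independent repeats. Calb2 was lower under all 19 fits, that of knockout replicate 3 alone included, between -0.35 and -0.15. Calb1 ranged from -0.50 to 0.10, the brighter Pvalb probe set from -0.44 to 0.04 and the dimmer one from -0.26 to 0.29. Sst ranged from -0.17 to 0.01, Npy from -0.23 to 0.18, Vip from -0.12 to 0.21 and Cck from -0.13 to 0.13. Over the whole array the count after adjustment was 1 higher and 1 lower. The lower one was the brightest probe set of the deleted gene, Ncam1 (adjusted p = 0.00076 in limma). The Ncam1 probe set next in brightness was not called (adjusted p = 0.416 in limma). The higher count was 0 with quantile normalization, median centring, no filter, no intensity trend, averaged probe sets per gene and knockout replicate 3 alone. The lower count was 2 in 2-month-old animals and 3 with array weights. Leaving out 1 animal gave 0 to 1 higher and 1 to 2 lower. The list medians had both signs across these settings, from -0.11 to 0.03 for GABA neuron genes and -0.04 to 0.07 for other EF-hand proteins, except those of the peptide receptors (0.04 to 0.14) and of the fast-spiking list (-0.15 to -0.06). With the replicate number as a block the counts stayed at 1 and 1 and no call on the 7 genes changed. The brighter Pvalb probe set had an unadjusted p of 0.0368 in limma with this block, where 8.51% of all probe sets were under 0.05. Deviations of same-numbered animals correlated at 0.01, 0.15 and 0.20 for replicates 1, 2 and 3, against -0.22 to 0.08 for animals of unlike number. Both replicates 3 also share their age. The main fit did not take the numbers as pairs, and these correlations do not settle whether they are. The cause of these shifts was not tested.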

Other observations

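Activity-regulated genes, transcription factors and signalling genes that neurons induce on firing, were higher in both 3-month-old brains than in the 4 younger ones as a group. The median deviation of 13 genes from the wild-type mean was 0.40 in the 3-month-old knockout brain and 0.33 in the 3-month-old wild-type brain, against -0.18 to -0.01 in the 4 brains of 2-month-old mice. Between genotypes 9 of the 13 were higher and 4 lower, with a median log2 difference of 0.12 and 0 called in limma, with 1 lower at an unadjusted p under 0.05. Btg2 had -0.39 ± 0.13, Bdnf, a neurotrophin that supports Npy expression in interneurons, 0.17 ± 0.11, and Inhba 0.23 ± 0.14. These genes were named for their low p between genotypes and did not all share the order by age. Inhba read 106.2 in the 3-month-old wild-type brain, its lowest value. Npy did not share this order, with 753.0 in the 3-month-old knockout brain, its lowest value, and 999.96 in the 3-month-old wild-type brain. With 1 animal of 3 months per genotype no age comparison within a genotype was tested.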
